A study of Homo sapiens with 2 samples.

Results

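The genes of the translation initiation factors were examined for open chromatin in 2 ATAC-seq libraries of U2OS cells, an established human osteosarcoma line. ATAC-seq uses the Tn5 transposase to insert sequencing adapters into accessible DNA. The members were the protein-coding genes of chromosomes 1 to 22 in RefSeq whose symbols start with EIF and a number, without the EIF2AK kinase genes, and there were 49 of 19126 such genes. One group carried a control short hairpin, delivered by infection (sh-ctrl, 1 library), and the other carried a hairpin targeting Vanguard (sh-VNGD, 1 library), a long non-coding RNA that the study's title calls responsive to glucose deprivation. Both grew in DMEM with serum, and no other treatment is named for either. With 1 library per group there is no replicate check, no p-value was computed, and the intervals given reflect counting error alone. No RNA was measured, so the knockdown was not checked here, and fewer cells with an open site cannot be told apart from a site less open in each cell.

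Initiation factors bring the ribosome to an mRNA and set it at the start codon. eIF2 delivers the initiator tRNA and is recharged with GTP by eIF2B, a step that stress kinases block by phosphorylating eIF2. The cap-binding complex eIF4F, made of eIF4E, eIF4G and the helicase eIF4A, and the large scaffold eIF3 recruit the small ribosomal subunit, and the eIF4E-binding proteins hold eIF4E back when mTOR is inactive. These factors are used by every growing cell, and several are known targets of MYC in tumours.

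The starts of 7 members are shown because they include extremes of the values below and most of them carry an E-box, which members held in a larger share than all genes. Each runs from 200 bases before a listed gene start to 20 bases after it, 5′ to 3′ on the gene's strand, from RefSeq (GRCh38.p14), and capitals mark any of the 9 motifs searched, here CACGTG (E-box), GGGCGG (GC box) and CCAAT, on either strand. EIF4B had the highest gene-end signal of the family and EIF4A1 the highest of the helicase genes. EIF4E and EIF4G1 encode the cap-binding subunit and the main scaffold, and EIF4H had the highest ratio of sh-VNGD to sh-ctrl outside a pair of near-identical copies. EIF5A2 had nearly equal numbers of tags, not scaled for depth, in both libraries, and EIF2B5 had the lowest ratio.
EIF4B, chr12:53006256-53006475, plus strand: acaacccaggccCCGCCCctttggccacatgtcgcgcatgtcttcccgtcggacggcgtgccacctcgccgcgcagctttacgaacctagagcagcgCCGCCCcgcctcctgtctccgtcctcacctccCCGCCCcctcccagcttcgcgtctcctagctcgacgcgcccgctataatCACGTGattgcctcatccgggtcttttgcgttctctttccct
EIF4A1, chr17:7572625-7572844, plus strand: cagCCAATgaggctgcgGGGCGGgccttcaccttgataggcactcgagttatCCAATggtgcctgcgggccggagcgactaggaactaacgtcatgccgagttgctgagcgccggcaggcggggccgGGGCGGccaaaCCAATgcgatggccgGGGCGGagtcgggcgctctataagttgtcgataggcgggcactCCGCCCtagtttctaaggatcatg
EIF4E, chr4:98929114-98929333, minus strand: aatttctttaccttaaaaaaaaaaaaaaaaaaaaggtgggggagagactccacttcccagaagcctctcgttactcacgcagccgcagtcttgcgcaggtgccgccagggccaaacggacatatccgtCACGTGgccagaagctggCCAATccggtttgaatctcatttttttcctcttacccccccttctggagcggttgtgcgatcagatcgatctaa
EIF4G1, chr3:184314406-184314625, plus strand: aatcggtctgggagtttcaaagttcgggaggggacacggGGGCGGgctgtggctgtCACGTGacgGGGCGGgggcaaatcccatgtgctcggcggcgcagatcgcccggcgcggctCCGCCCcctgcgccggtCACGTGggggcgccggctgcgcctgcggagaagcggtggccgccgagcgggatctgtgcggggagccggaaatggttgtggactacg
EIF4H, chr7:74174156-74174375, plus strand: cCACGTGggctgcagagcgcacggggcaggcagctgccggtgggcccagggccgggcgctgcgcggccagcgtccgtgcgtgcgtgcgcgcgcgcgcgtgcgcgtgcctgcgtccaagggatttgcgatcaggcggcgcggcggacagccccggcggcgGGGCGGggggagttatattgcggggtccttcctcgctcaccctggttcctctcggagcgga
EIF5A2, chr3:170908618-170908837, minus strand: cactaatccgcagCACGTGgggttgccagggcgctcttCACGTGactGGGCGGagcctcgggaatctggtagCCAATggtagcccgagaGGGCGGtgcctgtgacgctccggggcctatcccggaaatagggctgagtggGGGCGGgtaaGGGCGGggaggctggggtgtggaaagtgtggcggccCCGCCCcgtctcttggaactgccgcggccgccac
EIF2B5, chr3:184135158-184135377, plus strand: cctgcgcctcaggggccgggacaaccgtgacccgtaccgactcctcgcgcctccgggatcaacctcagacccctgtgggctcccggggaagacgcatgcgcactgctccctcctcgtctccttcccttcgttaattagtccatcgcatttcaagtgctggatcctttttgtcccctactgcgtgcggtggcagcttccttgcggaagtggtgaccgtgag

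In these stretches the E-box of EIF4B began 22 bases before the start and that of EIF4E 72 bases before it. EIF4G1 held E-boxes beginning 144 and 67 bases before its outermost listed start, and EIF5A2 held them at 187 and 162 bases. EIF4A1 carried CCAAT 197, 148 and 62 bases before its start, interleaved with GC boxes. No letters of EIF2B5 are in capitals, since none of the searched motifs lay in that window.

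The promoter table (250 bases before to 50 after a start) matched 41 of the 49 genes, with 57 listed starts. The letters of 9 motifs were searched on both strands, and a match describes the letters only. Matches to different motifs overlapped in 2 of the 57 windows, those of EIF2B2 and EIF4G2. The E-box CACGTG, which MYC and related factors can bind, was in a listed promoter of 11 of the 41 genes, beside 10.8% of all protein-coding genes with a listed promoter. Those genes were EIF1B, EIF2B3, EIF3F, EIF3K, EIF4A3, EIF4B, EIF4E, EIF4EBP3, EIF4G1, EIF4H and EIF5A2. The ETS letters CCGGAAG were in 12 of 41, beside 16.7%, and the GC box GGGCGG in 30 of 41, beside 64.6%. CCAAT was in 19 of 41, beside 41.8%. TATAAA was in 2, EIF4A2 and EIF4EBP3, beside 12.5%. The YY1 letters were in EIF2B5, outside the shorter stretch printed above, and in EIF5, beside 1.6%. TGACGTCA (CRE), the NRF1 letters and a palindrome linked to Kaiso were in none of the 57 windows, beside 2.31%, 1.5% and 0.572% of all windows. The median GC content was 65% over the 57 promoters and 62.7% over all 21156, and the median number of CpG dinucleotides was 28 and 21. Within genes, the median relative log2 ratio was -0.02 for the 10 members with an E-box and a ratio and -0.08 for the 26 with a listed promoter and no E-box. The medians of summit signal over the same genes were 85.5 tags (sh-ctrl) and 103.5 tags (sh-VNGD) with an E-box, and 112 and 96 without. Each library's median was taken separately, so these medians do not give the change of a typical gene. Gene by gene, relative ratios ran from -0.48 to 0.38 with an E-box and from -0.58 to 0.75 without. EIF4G1 was read at its far end, away from its E-boxes.

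Each value below is the pileup of a called peak, the number of tags covering its summit, with repeats of a position already removed by the peak caller. Of 51628228 tags read for sh-ctrl, 22931980 were kept, and of 48164322 read for sh-VNGD, 31326715 were kept, a ratio of 1.37. Peaks of both libraries that overlapped were merged into regions, and a gene took the highest region within 1000 bp of the outer end with more signal. The ratio of a gene is the log2 of sh-VNGD over sh-ctrl after scaling to kept tags, minus the median of all protein-coding genes, and is called relative for that reason. That median was -0.45, the same as the depth correction, so a relative ratio of 0 means equal unscaled pileups. Without this centring the members' median log2 ratio was -0.54. Exact Clopper-Pearson 95% intervals stand in square brackets, and paired values give sh-ctrl first and sh-VNGD second. Gene-end peaks did not separate the labelled line from other cell types: a peak in both libraries was found for 5 of 10 mesenchymal and osteoblast markers, 4 of 5 blood markers and 4 of 5 epithelial markers, with none at VIM, SPARC or RUNX2.

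Nearly all initiation factor genes had open chromatin at a gene end in both libraries. A gene-end peak was called in both for 44 of 49 members, beside 70.6% of all protein-coding genes. In sh-VNGD only it was called for 1, EIF5A, beside 4.86%, and in sh-ctrl only for 0, beside 2.9%. EIF2S3B, EIF3K, EIF4ENIF1 and EIF5AL1 had no gene-end peak in either library, beside 21.6%. The 44 members had a median pileup of 99 tags in sh-ctrl (lowest 16, highest 184) and 90 in sh-VNGD (lowest 27, highest 180). Over all 13422 genes with a ratio the medians were 75 and 73. Summed signal was ranked among all genes with a gene-end peak in at least 1 library, a larger set than those with a ratio. By that rank, 34 of the 44 lay at or above the middle. At the 90th percentile or above lay 6, and only EIF3C and EIF3CL lay below the 25th.

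**Figure D1:**
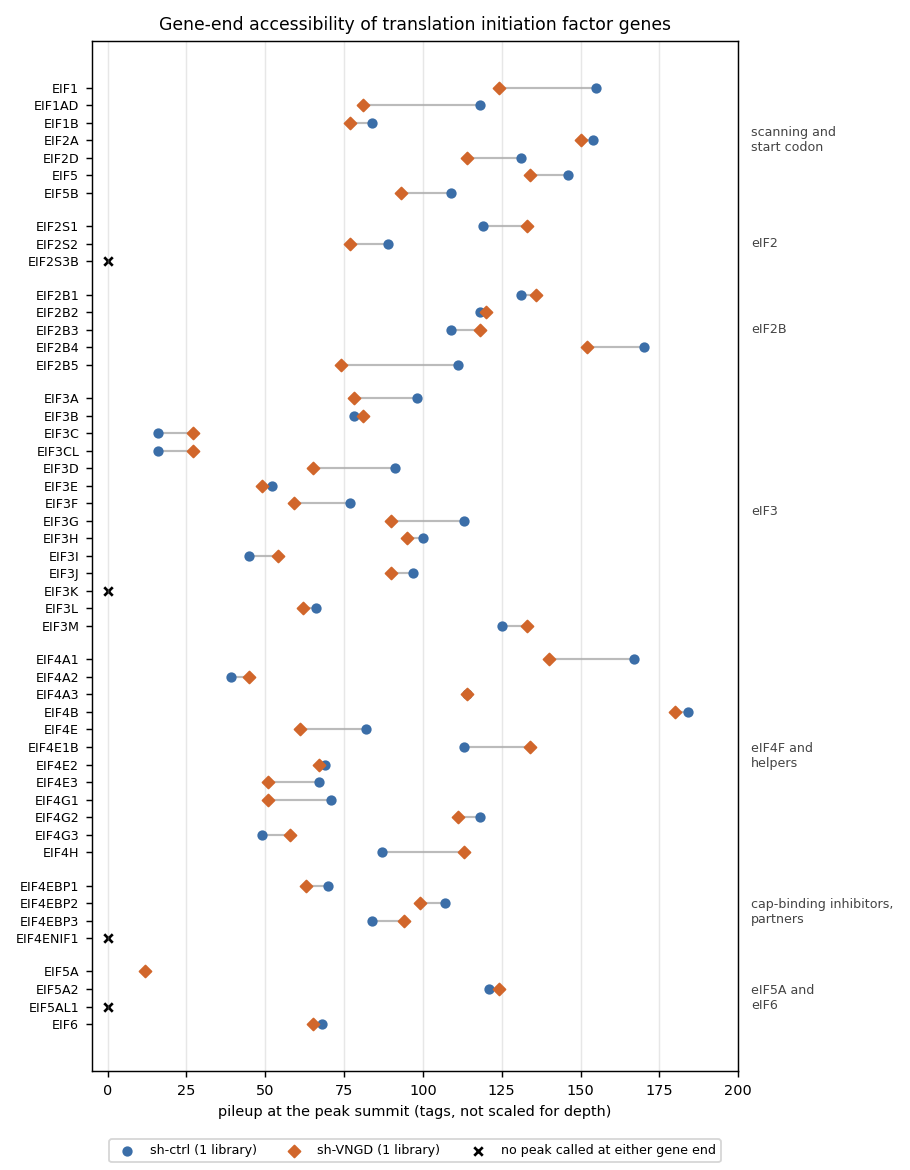
Pileup at the gene-end summit (horizontal axis, tags, not scaled for depth) for all 49 members, grouped by role, with sh-ctrl as circles and sh-VNGD as diamonds, 1 library each, and crosses for the 4 members with no peak at either end. Most pairs lie close together, from 16 and 27 tags at EIF3C to 184 and 180 at EIF4B.

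In the region used for each gene, the members differed little between the libraries relative to all genes. Their relative log2 ratios had a median of -0.09, with quartiles of -0.24 and 0.06 and a range from -0.58 to 0.75. The ratio was below 0 in 28 of 44, beside 49.8% of all genes and 52.6% of those reaching 30 tags in a library. It was above 0 in 15, and EIF4A3 was equal. A ratio 1.5-fold or more lower in sh-VNGD was found for 1 member, EIF2B5, beside 3.61% of genes. A ratio 1.5-fold or more higher was found for 2, EIF3C and EIF3CL, beside 7.02%. The counting interval lay below 0 in 3 members, EIF2B5, EIF1AD and EIF3D, beside 4.4%, and above 0 in none, beside 4.18%. It was 2 members, without EIF3D, when peaks needed a −log10 q of at least 5, at listed starts, or with the median taken over genes reaching 30 tags. It spanned 0 in the other 41. Of the 42 members reaching 30 tags in a library, 1 was lower (3.36% of such genes), 0 were higher (4.81%), 3 intervals lay below 0 (4.96%) and 0 above it (4.2%). These few genes past a limit are near the share among all genes, so their number is no result about the family. Within 1.25-fold of equality lay 32 of 44 members, beside 71.4% of genes.

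**Figure D2:**
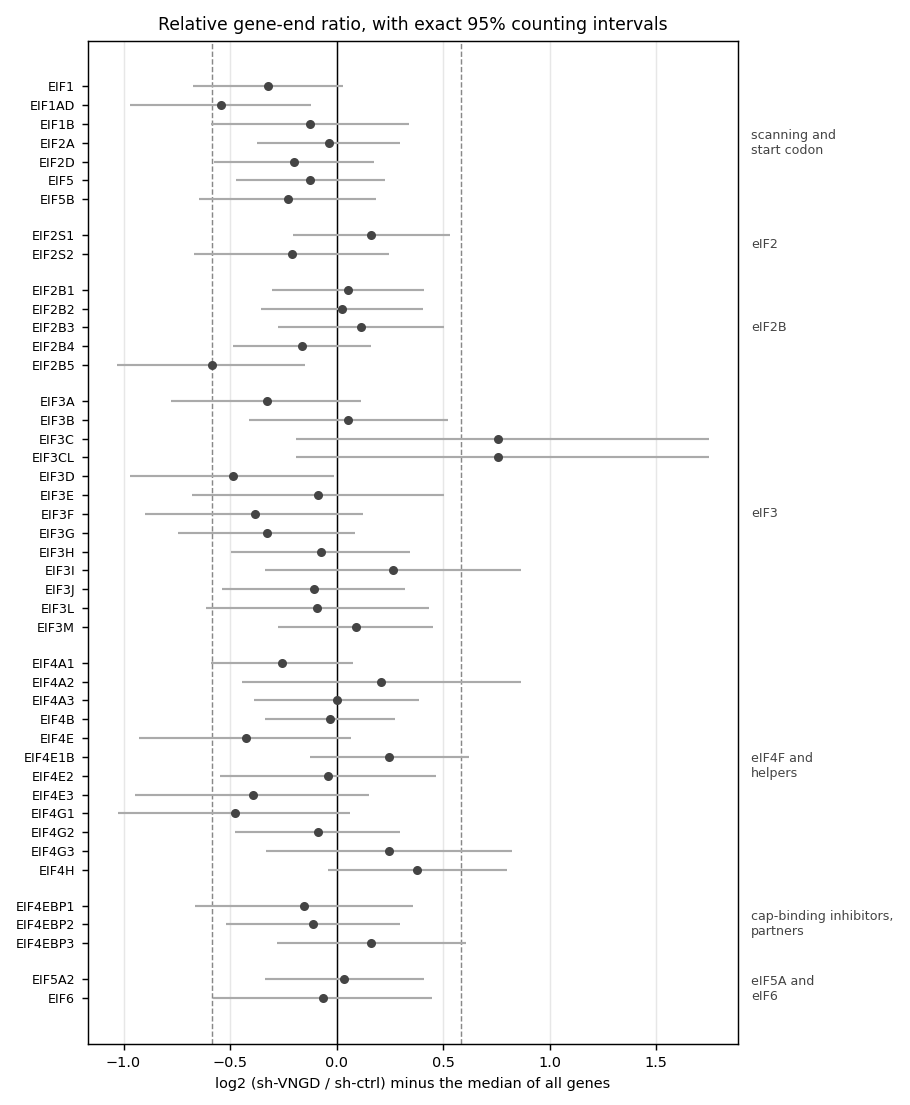
Relative log2 ratio of sh-VNGD to sh-ctrl (horizontal axis) for the 44 members with a peak in both libraries, grouped by role, with bars for exact 95% counting intervals and dashed lines at 1.5-fold. The intervals of EIF2B5, EIF1AD and EIF3D lie below 0 and the other 41 cross it.

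**Figure D3:**
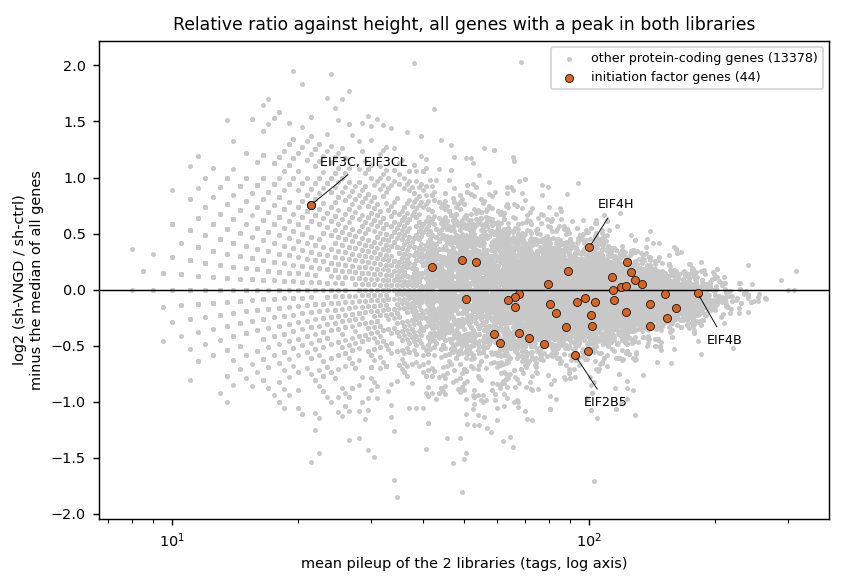
Relative log2 ratio (vertical axis) against the mean pileup of both libraries (horizontal log axis, tags) for the 44 members, in colour, and all other protein-coding genes with a ratio, in grey. The scatter of all genes widens at low pileup, where EIF3C and EIF3CL lie, and the members fall within it.

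The genes grouped here under scanning and start codon choice had some of the strongest gene ends. The grouping is loose, since it also holds EIF1AD, EIF2A, EIF2D and EIF5B. All 7 had a peak in both libraries, with median pileups of 131 and 114 tags. In the regions used, all 7 ratios were below 0, with a median of -0.20, beside 49.8% of all genes and 52.6% of those reaching 30 tags. This shared direction depended on the window and measure. With a window of 500 bp EIF5B lay above 0. By the authors' fold enrichment, before centring, EIF2A had a log2 ratio of 0.01 and the others were below 0. Only 1 of the 7 counting intervals, that of EIF1AD, lay below 0, and 3 of the 7 regions were shared with another gene. EIF1, which keeps the scanning ribosome from stopping at wrong codons, had 155 tags (sh-ctrl) and 124 tags (sh-VNGD), a relative ratio of -0.32 [-0.67, 0.03]. Its summits lay 518 and 480 bp inside the gene, and a second region at the start held 112 and 101 tags. EIF5, which makes eIF2 hydrolyse its GTP, had 146 and 134 tags, a ratio of -0.12. EIF2A, a protein outside the eIF2 complex that can also deliver initiator tRNA, had 154 and 150 tags in a region shared with the end of SERP1. EIF1AD, named for a domain like that of eIF1A, had 118 tags (sh-ctrl) and 81 tags (sh-VNGD), a ratio of -0.54 [-0.97, -0.12], in the region chr11:66001897-66003126 that also touches an end of BANF1. Signal of EIF1AD and BANF1 cannot be told apart there. EIF5B, the GTPase of subunit joining, had 109 and 93 tags in a region shared with TXNDC9, and 80 and 91 in a second region nearer its start, so its libraries change order between the regions. EIF2D had 131 and 114 tags and EIF1B, the close relative of EIF1, had 84 and 77.

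Where the genes of eIF2 and its exchange factor eIF2B had a gene-end peak, the unscaled pileups of the libraries lay within 1.25-fold, with EIF2B5 as the exception. EIF2S1, the subunit that stress kinases phosphorylate, had 119 tags (sh-ctrl) and 133 tags (sh-VNGD), a ratio of 0.16 [-0.21, 0.53], at an end shared with ATP6V1D. EIF2S2, the beta subunit, had 89 and 77. EIF2S3B, a copy of the gamma subunit gene, had no gene-end peak, and its highest inner peaks had 14 and 15 tags. Among the 5 eIF2B genes the medians were 118 and 120 tags. EIF2B4 had the highest, at 170 and 152 tags in a region shared with SNX17, a ratio of -0.16 [-0.49, 0.16]. EIF2B1 had 131 and 136 tags, EIF2B2 118 and 120, and EIF2B3 109 and 118. EIF2B5, which encodes the catalytic epsilon subunit, had 111 tags (sh-ctrl) and 74 tags (sh-VNGD), a ratio of -0.58 [-1.03, -0.15] that lies exactly on the 1.5-fold limit. The nearest member inside that limit was EIF1AD, 1.46-fold lower. The region of EIF2B5, chr3:184134097-184135740, held 1 called peak for the control and 2 for sh-VNGD. The highest summits lay at -753 and -1097 bp from the start printed above, where negative is upstream. The values thus come from points 344 bp apart, whereas the median distance between the summits of a member was 14 bp. At its other end EIF2B5 had 82 and 76 tags, and by the authors' fold enrichment its relative ratio was -0.20.

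The eIF3 scaffold had genes on both sides of 0. Of its 14 genes, 13 had a peak in both libraries, with medians of 78 and 65 tags, and 8 of 13 ratios were below 0. EIF3D, a subunit that can itself bind the cap of some mRNAs, had 91 tags (sh-ctrl) and 65 tags (sh-VNGD), a ratio of -0.49 [-0.97, -0.01] at chr22:36528813-36529641. EIF3M had the highest signal, 125 and 133 tags. EIF3I had 45 and 54 tags, a ratio of 0.26 [-0.33, 0.87], at an end shared with TMEM234. EIF3C and its near-identical copy EIF3CL each had 16 tags (sh-ctrl) and 27 tags (sh-VNGD), a ratio of 0.75 [-0.19, 1.75], in regions of the same length, 374 bp. These values are uncertain, because reads of such copies can be split or placed at either, and no source used here says how they were placed. Without both, the members' median stayed at -0.09 and no member was 1.5-fold higher. EIF3K had no gene-end peak, and its highest inner peaks had 10 and 21 tags. The other eIF3 genes ranged from 52 tags (EIF3E) to 113 (EIF3G) in sh-ctrl and from 49 to 95 in sh-VNGD.

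The cap-binding complex and its helpers held both the family's strongest gene end and ratios on either side of 0. All 12 had a peak in both libraries, with medians of 84.5 and 89 tags, and 7 ratios were below 0. EIF4B, which stimulates the helicase, had 184 tags (sh-ctrl) and 180 tags (sh-VNGD), a ratio of -0.03 [-0.34, 0.27], at the start printed above. EIF4H, its smaller relative, had 87 and 113 tags, a ratio of 0.38 [-0.04, 0.80]. The helicase genes differed in height: EIF4A1 had 167 and 140 tags in a region shared with SENP3, EIF4A3, which serves in the exon junction complex, had 114 and 114, and EIF4A2 had 39 and 45. EIF4E, the cap-binding subunit, had 82 and 61 tags, a ratio of -0.43 [-0.93, 0.07], and 48 and 60 in a second region at the same end, a ratio of 0.32 [-0.25, 0.90]. Its relatives EIF4E2, which represses translation, and EIF4E3 had 69 and 67 tags and 67 and 51 tags. EIF4E1B had 113 and 134 tags at the end away from its start, shared with TSPAN17, and 43 and 39 at its start end.

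Among these genes the direction depended on which end was read for EIF4E1B, EIF4E3 and EIF4A2, and the ratio of EIF4G1 depended on the region. EIF4A2 had a ratio of 0.21 in the region used, and 29 and 17 tags at its far end, a ratio of -0.77 [-1.73, 0.14]. Outside this group EIF6 and EIF2A also changed sign, with 46 and 58 tags and 14 and 18 tags at their far ends. The intervals of all these regions spanned 0. EIF4G1, the main scaffold, had 71 and 51 tags at its far end, shared with FAM131A, a ratio of -0.48 [-1.03, 0.06]. At its outer start, printed above, it had 70 and 70 tags, in a second region there 30 and 38, and at an inner listed start 81 and 79. EIF4E3 had a ratio of -0.39 [-0.95, 0.15] at its far end, and 36 and 53 tags at its start end. EIF4G2, a scaffold that lacks the eIF4E-binding site, had 118 and 111 tags, and EIF4G3 had 49 and 58, a ratio of 0.24 [-0.33, 0.82].

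In the regions used, the inhibitors of eIF4E and the late factors showed small differences in unscaled pileup. EIF4EBP1 had 70 tags (sh-ctrl) and 63 tags (sh-VNGD), EIF4EBP2 had 107 and 99, and EIF4EBP3 had 84 and 94. A second region at the same end of EIF4EBP1 had 60 and 34 tags, a ratio of -0.82 [-1.47, -0.19]. EIF4ENIF1, which carries eIF4E into the nucleus, had no peak at its outer ends, but 50 and 40 tags at a listed start inside them, a ratio of -0.32 [-0.96, 0.31]. EIF6, which keeps the ribosomal subunits apart, had 68 and 65 tags at an end shared with FAM83C. In the eIF5A family, whose members help the ribosome through difficult peptide bonds, EIF5A2 had 121 and 124 tags, a ratio of 0.04 [-0.34, 0.41]. EIF5A had no called peak in sh-ctrl and 12 tags in sh-VNGD, near the lowest called pileups of 6 and 7 tags. EIF5AL1, a near copy of it, had none.

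Of 36 members with a listed start and a ratio, 33 had their region at the start end (91.7%, beside 89.0% of all genes), and the summit lay within 300 bp of a listed start in 28 of 36 in each library, beside 68.0% and 67.6% of all genes. The median summit position was -78 bp from the start in sh-ctrl and -73.5 bp in sh-VNGD. Read at listed starts alone, 37 of 41 members had a peak in both libraries, beside 70.9%, with medians of 107 and 93 tags over those 37. The regions of 15 of the 44 members also touched an end of another protein-coding gene, beside 27.8% of genes.

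Regions at the gene ends other than the one used were open in both libraries in 24 cases. Of these, 4 were 1.5-fold or more lower in sh-VNGD, beside 7.41% of such regions in all genes, and 1 was higher, beside 12.6%. The lower ones were at EIF3G, EIF4A1, EIF4A2 and EIF4EBP1, and the higher one at EIF2B3. At EIF3G, at the end not used, the region chr19:10114115-10115078 had 70 and 28 tags, a ratio of -1.32 [-2.01, -0.67], whereas a second region near the one used had 54 and 73. The far end of EIF4A1 had 90 and 59 tags, a ratio of -0.61 [-1.11, -0.12].

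**Figure D4:**
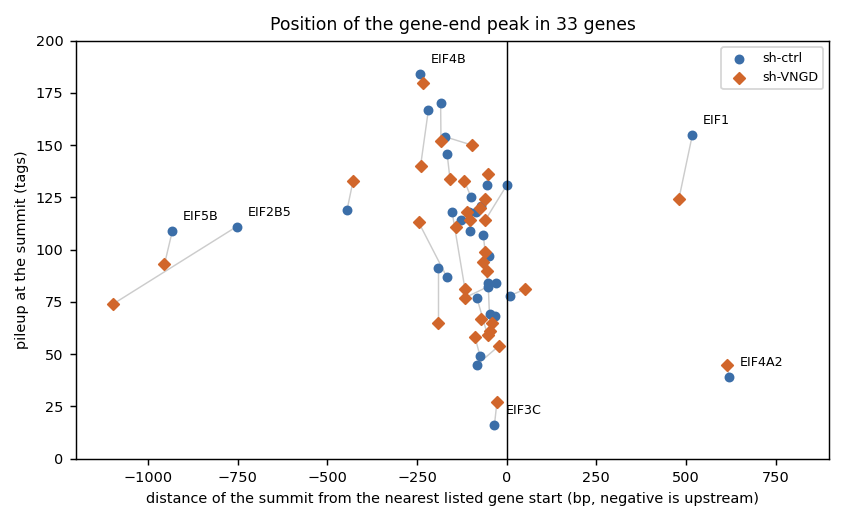
Pileup at the summit (vertical axis, tags) against its distance from the nearest listed start (horizontal axis, bp, negative is upstream) for 33 members, with a grey line joining the libraries of each gene. Most summits lie just before the start, and those of EIF5B, EIF2B5, EIF1 and EIF4A2 lie far from it.

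Inside the genes the sh-VNGD list held more peaks, as it did over all genes. Summits over 1000 bp from both ends numbered 162 in sh-ctrl and 233 in sh-VNGD, a ratio of 1.44, beside 1.40 over all protein-coding genes and 1.37 in kept tags. With equal numbers of peaks taken from each list the counts were 162 and 154. The part of depth in the longer list was not tested beyond this. More body peaks in sh-VNGD were counted in 25 members, more in sh-ctrl in 4, and equal numbers in 20 (51.0%, 8.16% and 40.8%, beside 48.9%, 10.7% and 40.4% of all genes). EIF4G3, the longest member, had 40 and 58, EIF2B3 had 16 and 21, EIF3H 10 and 13, EIF4ENIF1 8 and 12, and EIF4E3 10 and 11. Merged, the body peaks gave 283 regions, of which 39.2% held a peak of both libraries, beside 41.1% over all genes.

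A few inner regions had ratios outside the range of the regions used at the gene ends. Of 39 body regions with a peak in both libraries and with 30 tags or more in a library, 4 were 1.5-fold or more lower in sh-VNGD, beside 13.6% of such regions in all genes, and 7 were higher, beside 16.2%. The members' shares were 10.3% and 17.9%, near the background. The highest region, inside EIF3L at chr22:37887508-37888113, had 130 tags (sh-ctrl) and 67 tags (sh-VNGD), a ratio of -0.96 [-1.40, -0.52], whereas the gene end of EIF3L had 66 and 62. Inside EIF4G3, the region chr1:21063969-21064524 had 94 and 28 tags, a ratio of -1.75 [-2.41, -1.13]. Another, chr1:21022259-21022830, had 96 and 106, a ratio of 0.14, and chr1:21052539-21053086 had 23 and 46, a ratio of 1.00 [0.25, 1.79]. EIF4G3 thus held regions on both sides while its gene end had 49 and 58 tags. Of its 9 body regions reaching 30 tags, 4 were 1.5-fold or more higher (44.4%) and 1 lower (11.1%), with a median of 0.45. Among the higher ones, only chr1:21052539-21053086 had an interval above 0. EIF2D had 59 and 27 tags at chr1:206586673-206587344, a ratio of -1.13 [-1.84, -0.45], and 62 and 68 at chr1:206606881-206607199. EIF2B3 had 16 and 38 tags at chr1:44875755-44876419, a ratio of 1.25 [0.37, 2.19].

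**Figure D5:**
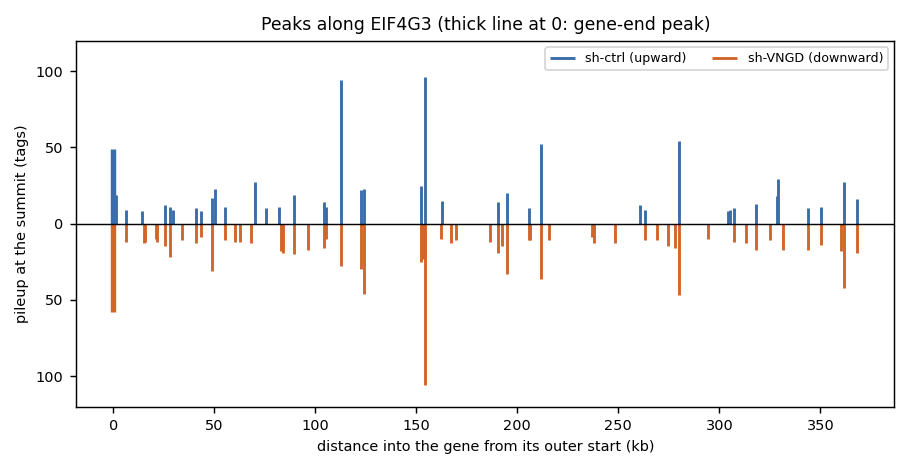
Pileup of each called peak along EIF4G3 (vertical axis, tags) against the distance into the gene from its outer start (horizontal axis, kb), with sh-ctrl upward and sh-VNGD downward and thick lines at 0 for the gene-end peak. The region with 94 and 28 tags stands out upward, and the one with 96 and 106 is high both ways.

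Other genes of translation also had open gene ends. A list of 9 genes held the 4 eIF2 kinases (EIF2AK1 to EIF2AK4), PPP1R15A, PPP1R15B, GCN1, IMPACT and ATF4. All 9 had a gene-end peak in both libraries, with a median relative ratio of -0.15. The lowest, GCN1, an activator of the kinase EIF2AK4, had 100 tags (sh-ctrl) and 73 tags (sh-VNGD), a ratio of -0.45 [-0.91, -0.004]. It was the 1 gene of the 9 with an interval below 0, beside 4.4% of all genes. The highest, PPP1R15A, which helps remove the phosphate from eIF2, had 37 and 55, a ratio of 0.57 [-0.06, 1.21]. All 17 poly(A) and cap regulators had one, with a median of -0.13. Of these, 1 was 1.5-fold or more higher, beside 7.02% of all genes. It was ABCF1, at 12 and 30 tags, a ratio of 1.32 [0.31, 2.42]. All 14 elongation and release factors had one, with a median of -0.00. In that list 1 was 1.5-fold or more lower, beside 3.61% of all genes, and 2 were higher, beside 7.02%. EEF2, the translocase of elongation, was lower at 67 and 41 tags, a ratio of -0.71 [-1.31, -0.13]. The kinase gene EEF2K, at 25 and 38 tags, and EEFSEC, at 11 and 17, were higher. Their intervals spanned 0, at [-0.16, 1.39] and [-0.55, 1.87]. Among 82 cytosolic ribosomal protein genes, 79 had a peak in both libraries with a median of -0.13. Of the 79, 5 were 1.5-fold or more lower (beside 3.61% of all genes) and 2 higher (beside 7.02%), and 10 intervals lay below 0 (beside 4.4%) and 1 above it (beside 4.18%). Among 35 aminoacyl-tRNA synthetase genes, 33 had one, with a median of -0.15, and by the same limits 0 were lower and 3 higher. The 3 were CARS1, SARS2 and VARS2, each under 30 tags in both libraries and with an interval that spanned 0. Over the 33, 1 interval lay below 0 and 0 above it. The difference between these lists and the initiation factors was not tested.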

How the data were processed

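ATAC-seq libraries were sequenced on a BGISEQ-500, per the labels' protocols. Tools and builds in the submitters' processing notes are deepTools, Bowtie2 2.2.5, GRCh38.p13 (hg38) and MACS2 2.1.2, whereas the file headers give MACS 2.1.0.20150731. Peaks were called on each library separately, a shift of 100 bp and an extension to 200 bp were applied to tags, and 1 tag per position was kept, per the file headers. The deposited pileup is a signal, unscaled for depth and whole in every peak. The deposited fold enrichment is a ratio over local background. The deposited −log10 q was used only to filter and rank peaks. Read filtering: not given in the sources used here.

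Peaks overlapping by at least 1 bp were merged. Gene bounds, starts and sequences came from RefSeq (GRCh38.p14), and starts were listed for 41 of 49 members. The text names members with the highest signal or the highest and lowest ratios, all without a peak in both libraries, family relatives, and the richest gene bodies. Members and lists were chosen with earlier results of these data known. With 1 library per group no test was run. The code for the ratio was run on counts simulated with counting error alone, which cannot show how well the intervals hold for real libraries. Python 3.11.15, pandas 2.3.3, numpy 2.4.6 and scipy 1.17.1 were used. Alternatives changed the window, merging, q threshold, number of peaks, measure, start and centre.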

Additional observations from a re-analysis of the deposited data

How the results depend on the processing

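Of 45 values recomputed under the alternatives, 36 stayed within their limits and 9 moved, all of them counts. The count of members 1.5-fold or more lower was 0 with a window of 500 bp, with a −log10 q of at least 5, by the authors' fold enrichment, at listed starts and with the centre on genes of pileup at least 30. EIF2B5, the 1 member behind that count, lies exactly on the limit. The count 1.5-fold or more higher was 0 with a −log10 q of at least 5 and by fold enrichment, and 1 at listed starts. EIF3D lost its interval below 0 under 3 alternatives, with a −log10 q of at least 5, at listed starts and with that centre, which left 2 members. Body peaks in sh-VNGD numbered 154 with equal numbers of peaks. Single ratios also moved: EIF4E3 was at 0.57 and EIF5B at 0.20 with a window of 500 bp, EIF3G at 0.26 and EIF4A1 at 0.09 by fold enrichment, and EIF4E3 at 0.39 at listed starts. For these, another region or measure was read by construction. Leaving out members that share their region with another gene, an alternative chosen after seeing the data, gave a median of -0.11 and, without EIF1AD, 2 such intervals. No paired analysis was possible because each group has 1 library. A pileup under 30 tags gives wide intervals, as at EIF3C and EIF3CL.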
